A study of Homo sapiens with 15 samples.

Results

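The 4 human alkaline phosphatase genes, ALPG, ALPP, ALPI and ALPL, were followed in K562 cells across a dose series of martinostat. They were taken by name from the 60649 genes of the count table, and the family was chosen by the counts of ALPG, which went from 0 in untreated cells to a high level in treated cells. The values of ALPG against untreated cells are therefore given as a description, without a test. K562 is an established cell line from chronic myeloid leukaemia (CML) that carries the BCR-ABL fusion, and martinostat is an inhibitor of histone deacetylases, the enzymes that remove acetyl groups from histones and other proteins. Poly(A) RNA was sequenced from 15 libraries in 5 groups of 3 replicates, which the labels call biological. One group was left untreated, and the others received 0.15, 0.25, 0.5 or 1 µM of the drug over 24 h. All groups were the same line, and whether untreated cells had received vehicle was not given in the sources used here. The study asked how the inhibitor acts on CML cells, and this dose series asked which transcripts change at which concentration.

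Alkaline phosphatases are zinc-containing ectoenzymes that are held on the outer face of the plasma membrane by a glycosylphosphatidylinositol (GPI) anchor and strip phosphate groups from small molecules at alkaline pH. ALPL encodes the tissue-nonspecific enzyme of bone, liver, kidney and neutrophils, which breaks down inorganic pyrophosphate and pyridoxal phosphate, and its activity in neutrophils is classically low in CML. ALPP encodes the placental enzyme of trophoblast, ALPG the closely related germ cell enzyme of testis and some germ cell tumours, and ALPI the intestinal enzyme of the enterocyte brush border. These tissue-restricted genes lie next to each other, whereas ALPL lies on another chromosome.

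On hg38, ALPP occupied chr2:232378724-232382889, ALPG chr2:232406844-232410714 and ALPI chr2:232456125-232460753, all on the plus strand. The end of ALPP and the start of ALPG were 23.954 kb apart, and 45.41 kb separated ALPG from ALPI. ALPL occupied chr1:21509397-21578410, also on the plus strand. The promoter windows of RefSeq on GRCh38.p14 are shown because the genes of the cluster rose together and the reads of near-identical genes can be hard to tell apart. Each window covers 300 bases around the annotated start. The windows were chr2:232378501-232378800 for ALPP, chr2:232406594-232406893 for ALPG, chr2:232455903-232456202 for ALPI and chr1:21509173-21509472 for ALPL, all on the plus strand. In the sequences of the cluster, capitals mark the stretches of at least 10 bases that ALPP, ALPG and ALPI held in common, and in ALPL they mark GGGCGG and TTTATA, the reverse complement of TATAAA.
ALPP promoter: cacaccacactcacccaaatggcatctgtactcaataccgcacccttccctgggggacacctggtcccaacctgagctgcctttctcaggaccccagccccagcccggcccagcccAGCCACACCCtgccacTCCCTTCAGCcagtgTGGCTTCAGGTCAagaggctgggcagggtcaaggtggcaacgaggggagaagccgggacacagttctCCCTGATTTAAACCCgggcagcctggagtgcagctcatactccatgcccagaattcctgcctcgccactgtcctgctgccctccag
ALPG promoter: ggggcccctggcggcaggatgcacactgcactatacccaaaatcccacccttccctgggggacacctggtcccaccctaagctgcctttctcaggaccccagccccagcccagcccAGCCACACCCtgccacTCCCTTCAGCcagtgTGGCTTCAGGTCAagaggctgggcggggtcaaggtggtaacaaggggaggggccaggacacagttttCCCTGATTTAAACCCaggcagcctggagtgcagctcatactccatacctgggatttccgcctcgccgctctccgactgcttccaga
ALPI promoter: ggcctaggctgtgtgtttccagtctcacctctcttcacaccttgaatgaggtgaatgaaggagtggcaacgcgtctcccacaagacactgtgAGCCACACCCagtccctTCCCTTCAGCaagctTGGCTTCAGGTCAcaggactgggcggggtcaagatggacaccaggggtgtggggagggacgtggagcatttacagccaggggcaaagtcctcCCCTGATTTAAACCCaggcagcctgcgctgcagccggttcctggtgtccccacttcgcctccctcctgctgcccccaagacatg
ALPL promoter: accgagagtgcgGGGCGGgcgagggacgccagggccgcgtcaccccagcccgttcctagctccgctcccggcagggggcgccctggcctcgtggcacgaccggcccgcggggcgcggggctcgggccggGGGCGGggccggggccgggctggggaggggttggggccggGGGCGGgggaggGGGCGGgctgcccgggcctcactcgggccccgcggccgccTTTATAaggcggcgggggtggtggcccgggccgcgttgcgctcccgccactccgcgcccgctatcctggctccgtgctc

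The windows of ALPP and ALPG were identical at 87.3% of 292 aligned bases, those of ALPP and ALPI at 79.0% of 257, and those of ALPG and ALPI at 78.5% of 256. The longest stretch common to the cluster was CCCTGATTTAAACCC, of 15 bases, which no window of another gene held among the 35116 promoter windows of the table. A further stretch, TGGCTTCAGGTCA, was likewise found in these windows and no others. The letters TATAAA of a canonical TATA box were in none of the cluster windows on either strand, while 11.5% of all windows held them. TTTAAA, a motif chosen after the sequences were seen and held by 12.2% of all windows, stood at position -30 in ALPP and ALPG and at position -28 in ALPI, with the start counted as 0. ALPL had TATAAA on the minus strand at position -29 and 4 copies of GGGCGG, the GC box, which 45.0% of all windows held at least once. ALPG and ALPI had 1 copy of GGGCGG each and ALPP none. AGATAA, the motif of GATA factors, CACGTG, the E-box, and TGACTCA, the AP-1 motif, were in none of these 4 windows on either strand, against 10.3%, 7.26% and 4.95% of all windows. CACCC, the motif of erythroid KLF factors, was in all 4 and in 59.9% of all windows. The ALPL window had 82.3% G and C and 42 CpG, and those of ALPP, ALPG and ALPI had 62.3%, 62.3% and 59.7% with 6, 6 and 7 CpG, beside medians of 58.7% and 14 CpG over all windows. Another 2 RefSeq windows of ALPL, 1 upstream and 1 within the gene, are not shown. The upstream window held 2 copies of CACGTG, and the window within the gene held 1 copy of AGATAA. These matches describe the letters of the windows only.

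The coding sequences of ALPP and ALPG differed at 31 of 1594 aligned bases, an identity of 98.1%. ALPI was 90.4% identical to ALPP and 90.2% to ALPG, and ALPL was 73.4% to 74.3% identical to the others. Reads were 100 bases long, so every stretch of 100 bases in the main transcript of each gene was searched in the genome. For ALPG, 379 of 2393 stretches (15.8%) had an exact copy, and for ALPP 379 of 2655 (14.3%), each in the other gene. ALPI and ALPL had no exact copy of any of their 3142 and 2437 stretches. How the counting treated reads with more than 1 position was not stated, so the split of reads between ALPP and ALPG is uncertain over those stretches. ALPP also had 631 of its 2869 exon bases (22.0%) under a non-coding gene of the opposite strand, ENSG00000224516, which had 0 counts in all 15 libraries.

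Library totals ranged from 23755510 to 32805574 counts. Replicates differed by more than sampling noise in every pair, with a chi-square per degree of freedom of 6.15 or more, and all 15 libraries were kept as separate samples. The third replicates at 0.25 and at 0.5 µM stood apart on the third principal component, with scores of 70.1 and 75.4 beside a range of -42.5 to 16.0 elsewhere. The steps between doses, the shares of the 1 µM level and the read ratios are also given without them. The erythroid transcripts of K562 checked the label. GATA1, the erythroid master regulator, stood at 328 ± 5.90 CPM (read counts scaled to sequencing depth, with library factors from TMM, the trimmed mean of M values) and the transferrin receptor TFRC at 1227 ± 110 CPM in untreated cells (SD, n = 3). Of the lymphoid markers, MS4A1 had 0 counts there and CD3E 0.540 ± 0.00820 CPM, and the summed level of the list was 2.82 to 4.93 CPM. Over the 23711 tested genes, the median log2 fold change against untreated cells was 0.28 to 0.34, or 0.64 to 0.84 when libraries were scaled by their totals alone, and changes are read against that shift. Of the genes called at 1 µM, 58.5% were higher, or 69.3% on library totals.

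ALPG, the germ cell enzyme, had 0 counts in each of the 3 untreated libraries. At 0.15 µM it had 108, 96 and 161 counts in replicates 1, 2 and 3. At 0.25 µM it had 449, 486 and 505 counts. These counts rose to 1512, 1635 and 2148 at 0.5 µM and stood at 1864, 1767 and 1832 at 1 µM. Every treated library thus held ALPG reads and no untreated library did, and the libraries at 0.15, at 0.25 and at the 2 higher doses formed separate ranges. The mean levels were 4.24 ± 1.14, 15.1 ± 2.37, 64.5 ± 5.36 and 63.6 ± 2.57 CPM (SD, n = 3) in order of dose. A count of 0 over the 3 untreated libraries together allows a level of up to 0.0395 CPM (3 counts, counting error only). Against that floor ALPG was at least 107-fold higher at 0.15 µM, at least 382-fold at 0.25 µM, at least 1632-fold at 0.5 µM and at least 1611-fold at 1 µM. Of 1552 tested genes with 0 counts in the untreated libraries, 2 had a higher mean CPM than ALPG at 1 µM. The family was chosen by this rise of ALPG, so the rank is a description only. In bulk RNA, fewer or more cells with a transcript and less or more of it per cell cannot be told apart.

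**Figure D1:**
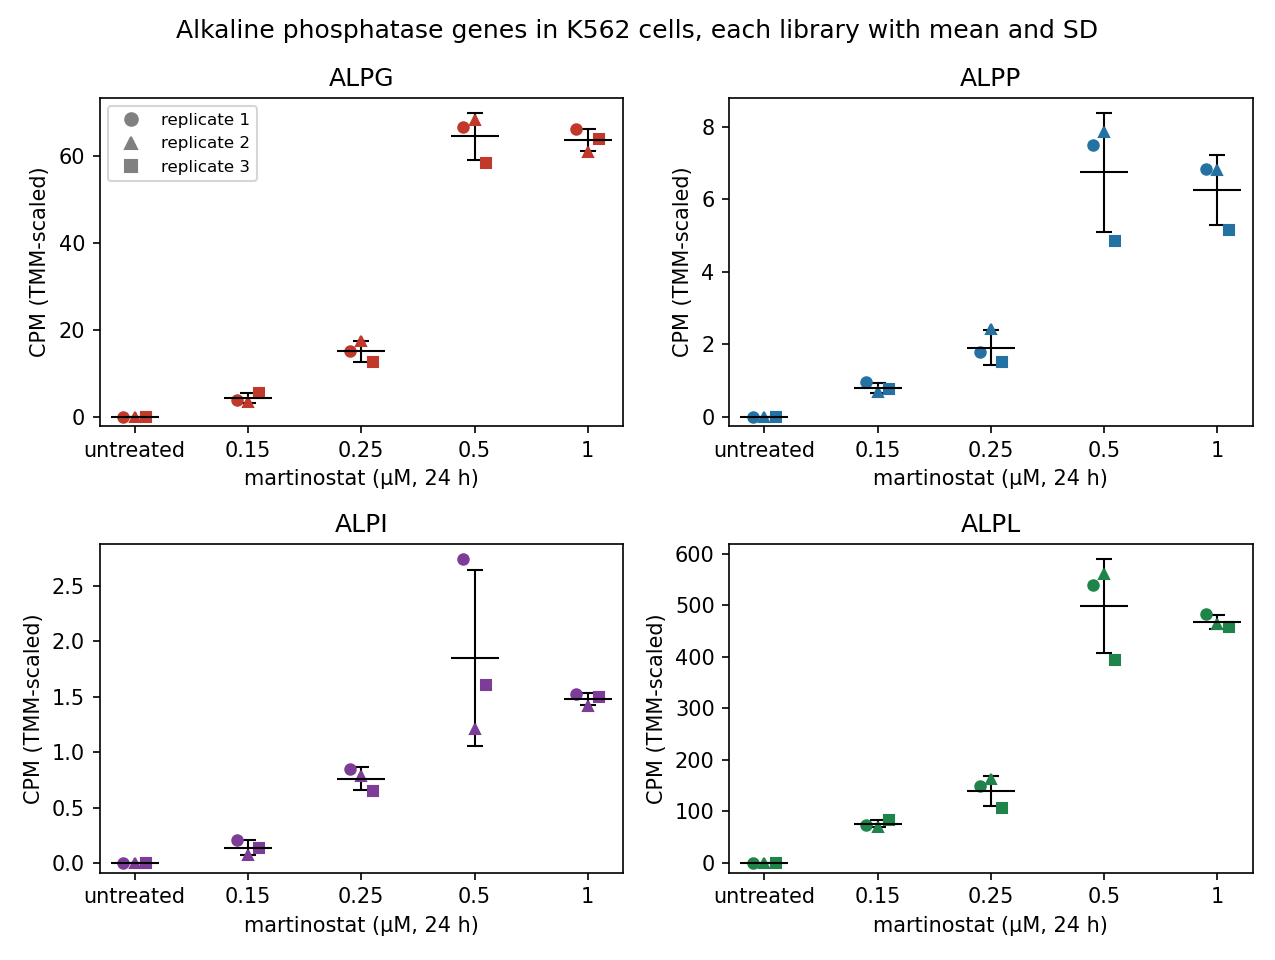
Level of ALPG, ALPP, ALPI and ALPL in CPM (TMM-scaled, linear axes that differ between panels) against martinostat dose in µM, with each library as a point by replicate and the mean and SD of 3 libraries as a bar. All 4 genes sat at or near 0 untreated, rose through 0.15 and 0.25 µM and reached similar levels at 0.5 and 1 µM, with ALPG at 64.5 and 63.6 CPM.

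ALPP, the placental enzyme, also had 0 counts in each untreated library. It had 27, 19 and 22 counts at 0.15 µM, 53, 68 and 60 at 0.25 µM, 170, 188 and 179 at 0.5 µM and 193, 197 and 148 at 1 µM. Its ranges, too, did not overlap up to 0.5 µM and overlapped between 0.5 and 1 µM. The means were 0.791 ± 0.142, 1.91 ± 0.475, 6.74 ± 1.64 and 6.26 ± 0.961 CPM (SD, n = 3), which put ALPP at least 20.0-fold above the floor of the untreated cells at 0.15 µM, at least 48.3-fold at 0.25 µM and at least 159-fold at 1 µM. Of the 1552 genes with 0 untreated counts, 70 (4.51%) had a higher mean CPM than ALPP at 1 µM.

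ALPI, the intestinal enzyme, had the fewest reads. It had 0 counts in each untreated library, then 6, 2 and 4 at 0.15 µM, 25, 22 and 26 at 0.25 µM, 62, 29 and 59 at 0.5 µM and 43, 41 and 43 at 1 µM. The 0.5 µM libraries spread most, and their range enclosed that of the 1 µM libraries. The means were 0.140 ± 0.0701, 0.761 ± 0.101, 1.85 ± 0.791 and 1.48 ± 0.0573 CPM (SD, n = 3), at least 3.53-fold above the floor at 0.15 µM and at least 37.5-fold at 1 µM. Of the 1552 genes with 0 untreated counts, 335 (21.6%) had a higher mean CPM than ALPI at 1 µM.

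ALPL, the tissue-nonspecific enzyme, was the only member with reads in untreated cells, with 18, 8 and 16 counts in replicates 1, 2 and 3. It had 2123, 1975 and 2419 counts at 0.15 µM, 4410, 4577 and 4251 at 0.25 µM, 12213, 13434 and 14525 at 0.5 µM and 13610, 13461 and 13114 at 1 µM. Every treated library thus lay far above every untreated library, and the ranges at 0.5 and 1 µM overlapped. The means went from 0.557 ± 0.222 CPM untreated to 75.8 ± 6.83, 140 ± 29.8, 498 ± 90.5 and 468 ± 13.2 CPM (SD, n = 3). From the summed counts the rise was 137-fold at 0.15 µM (95% counting interval 101 to 191) and 846-fold at 1 µM (626 to 1174). In the third replicates at 0.25 and 0.5 µM, which stood apart, ALPL was the lowest of its group on the TMM scale (106 and 395 CPM), and without them the means were 156 and 550 CPM.

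Of the members, ALPL alone had untreated reads to compare with. Calls against untreated cells were made by edgeR (quasi-likelihood test, Benjamini-Hochberg adjusted over all tested genes) and are given here for the background only. Of all tested genes, 31.9%, 37.4%, 39.4% and 38.8% were called higher in order of dose, and 51.2%, 62.2%, 66.9% and 66.2% in either direction. ALPL had a log2 fold change of 7.08 ± 0.27 (SE) at 0.15 µM (adjusted p 5.78e-13), 7.97 ± 0.28 at 0.25 µM, 9.80 ± 0.29 at 0.5 µM and 9.71 ± 0.29 at 1 µM (adjusted p 1.08e-14). Every treated library lay above every untreated library for ALPL at each dose, as held for 37.2%, 39.1%, 39.9% and 42.8% of all tested genes in order of dose. ALPP and ALPI entered the fit only through the treated libraries, so they had to differ from untreated cells there, and their bounds against the floor are given as a description in place of a test. ALPL had 18, 8 and 16 untreated counts, too few in the second replicate to pass the filter on untreated libraries alone. It too entered through the treated libraries, so no test of it against untreated cells is given.

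The steps between doses used no untreated library, although the family was chosen with the treated counts of ALPG known. From 0.15 to 0.25 µM, ALPG, ALPP and ALPL were tested. ALPI, with 6, 2 and 4 counts at 0.15 µM, passed the filter only through higher doses, which favours a rise, so its values at this step are a description. From 0.15 to 0.25 µM the level rose 3.56-fold for ALPG, 2.41-fold for ALPP, 5.45-fold for ALPI and 1.84-fold for ALPL. ALPG, ALPP and ALPL were called higher, where 4.96% of all tested genes were called higher and 7.32% lower. The log2 fold changes were 1.83 ± 0.19 (SE) for ALPG (edgeR, Benjamini-Hochberg adjusted p 2.47e-05), 1.26 ± 0.31 for ALPP (0.0142) and 0.88 ± 0.19 for ALPL (0.00516). That of ALPI was 2.41. The ALPP call was lost without the second replicate at 0.15 µM (adjusted p 0.0604) and without the second replicate at 0.25 µM (0.0633). Both libraries that stood apart were also left out, an alternative chosen after the data were seen. The log2 fold changes were then 1.959 for ALPG, 1.43 for ALPP, 2.53 for ALPI and 1.07 for ALPL, and ALPG, ALPP and ALPL were called.

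From 0.25 to 0.5 µM the rise was 4.28-fold for ALPG, 3.53-fold for ALPP, 2.43-fold for ALPI and 3.57-fold for ALPL. All 4 were tested at this step and called higher, against 14.4% of all tested genes called higher and 30.4% called in either direction. The log2 fold changes were 2.10 ± 0.18 (SE) for ALPG (edgeR, adjusted p 1.85e-07), 1.82 ± 0.28 for ALPP (0.000113), 1.28 ± 0.41 for ALPI (0.0250) and 1.83 ± 0.19 for ALPL (8.83e-07). Without the same libraries, ALPG had 2.07, ALPP 1.88 and ALPL 1.83 and stayed called, and ALPI had 1.29 and was no longer called (adjusted p 0.0626). The ALPI call was also lost without the first replicate at 0.5 µM (log2 fold change 0.89, adjusted p 0.151), which held 62 of the 150 ALPI reads of that dose, and without the second (0.0585) or the third replicate at 0.25 µM (0.0795). Every library of the higher dose lay above every library of the lower dose for all 4 genes at both steps, against 14.1% and 18.6% of all tested genes.

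Between 0.5 and 1 µM no member was called, and neither was any other gene in edgeR (0% of 23711 genes, with 372 at an unadjusted p under 0.05), whereas DESeq2 called 0 genes and limma 1. The log2 fold change was -0.019 for ALPG (95% interval -0.35 to 0.32), -0.10 for ALPP (-0.63 to 0.43), -0.32 for ALPI (-1.09 to 0.46) and -0.091 for ALPL (-0.46 to 0.28). The libraries of these doses overlapped for each gene. The order of levels was therefore untreated, 0.15 µM, 0.25 µM and then 0.5 and 1 µM, whose difference was within the spread.

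Levels of different genes were compared per kilobase of merged exons. On this scale ALPL was highest at every dose, with 25.4 ± 2.29 at 0.15 µM and 157 ± 4.43 at 1 µM (CPM per kilobase, SD, n = 3). At 1 µM ALPG followed with 25.5 ± 1.03, ALPP with 2.18 ± 0.335 and ALPI with 0.441 ± 0.0171. At 1 µM the ALPL level per exon kilobase was above that of 99.2% of 23670 tested genes with an exon length, ALPG above 93.0%, ALPP above 55.9% and ALPI above 27.7%. Untreated, ALPL stood above 29.4%. The deposited FPKM, fragments per kilobase and sequencing depth, gave another order, with ALPG at 16.8 ± 0.706, above ALPL at 6.93 ± 0.188, at 1 µM. Those values divide by the whole span of the gene with its introns, which is 69014 bases for ALPL against 2980 exon bases, and 3871 for ALPG against 2492.

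**Figure D2:**
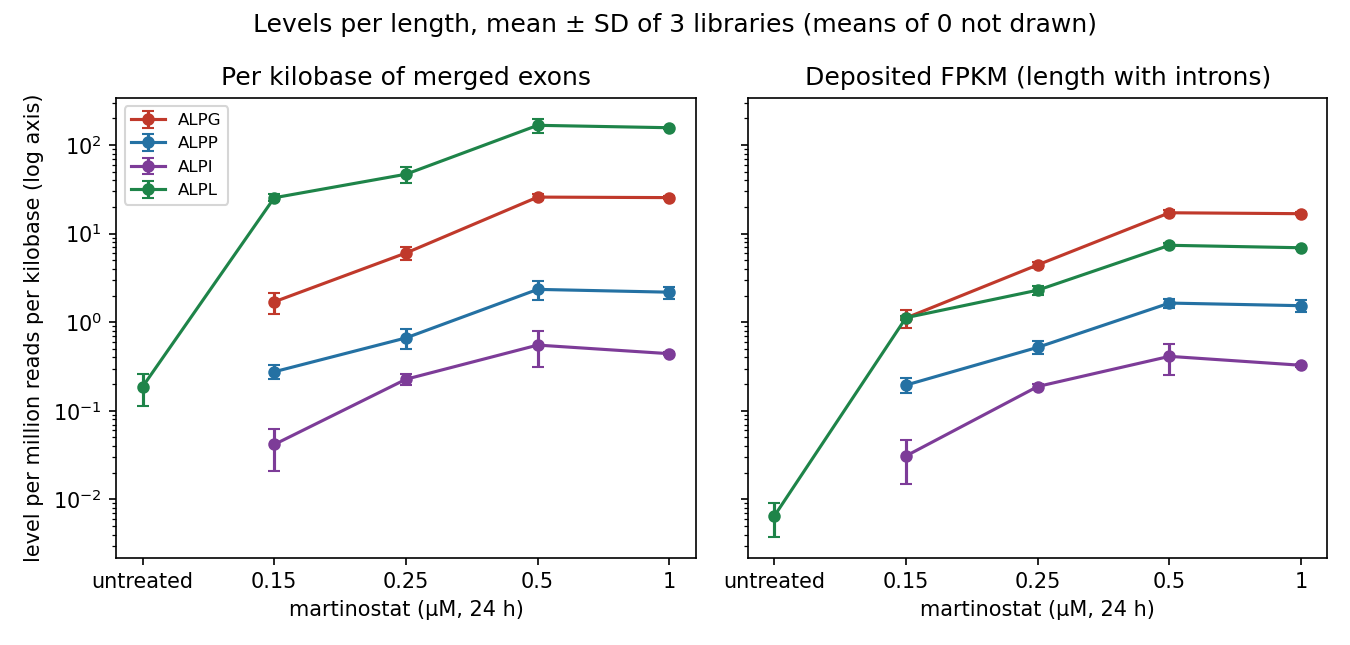
Level of the 4 genes per kilobase, in CPM per kilobase of exon at left and deposited FPKM at right (log axes), against martinostat dose in µM, mean ± SD of 3 libraries. On exon length ALPL lay above ALPG at every dose (157 against 25.5 at 1 µM), and on the deposited scale ALPG lay above ALPL at 0.25 µM and higher (16.8 against 6.93 at 1 µM).

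The mean level at each dose was set against the mean at 1 µM, as a description. At 0.15 µM, ALPG had reached 6.66% of its mean CPM at 1 µM, ALPI 9.44%, ALPP 12.6% and ALPL 16.2%. At 0.25 µM the shares were 23.7% for ALPG, 29.9% for ALPL, 30.5% for ALPP and 51.5% for ALPI, and at 0.5 µM they ran from 101% for ALPG to 125% for ALPI. Without the third replicates that stood apart, the shares at 0.25 µM were 25.6% for ALPG, 33.4% for ALPL, 33.7% for ALPP and 55.2% for ALPI, and those at 0.5 µM ran from 106% to 133%. As a reference, 152 tested genes had fewer than 3 untreated counts in all and at least 5 CPM at 1 µM. Their median shares were 20.8% at 0.15 µM, 43.6% at 0.25 µM and 96.8% at 0.5 µM. ALPG lay below the lower quartile of these genes at 0.15 µM (10.1%) and at 0.25 µM (28.1%).

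**Figure D3:**
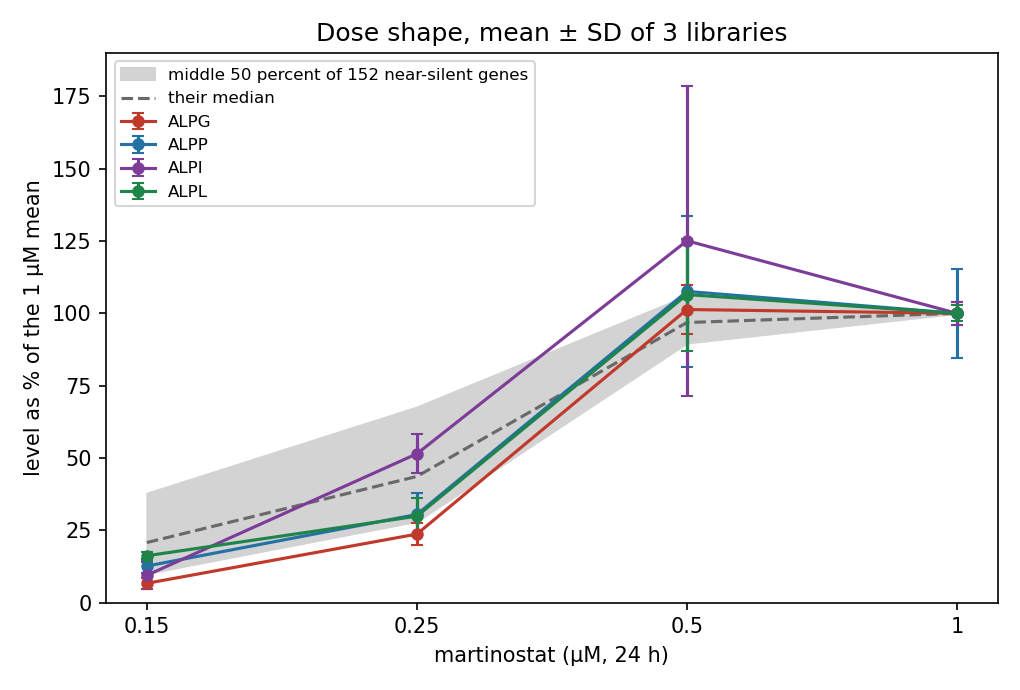
Mean level of each gene as a percent of its mean at 1 µM, with SD of 3 libraries, against martinostat dose in µM, beside the median and interquartile range of 152 genes that were near-silent untreated. ALPG was at 6.66% and 23.7% of its 1 µM level at 0.15 and 0.25 µM, where the reference median was 20.8% and 43.6%.

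The 5 genes whose shares at the 3 lower doses were nearest to those of ALPG, by the largest absolute difference, were CREB3L3, a liver and gut transcription factor of fasting metabolism (3.21 percentage points), PNMA8B (3.31), the melatonin-related receptor GPR50 (4.21), the sugar transporter SLC45A1 (5.52) and CACNG5, a calcium channel gamma subunit (6.37). Their mean levels at 1 µM were 40.6, 5.86, 14.8, 31.2 and 12.5 CPM. These shares are a likeness over 4 doses of the same libraries. ALPP, at 6.78 percentage points, would come next in that order, and ALPL had a difference of 9.54 and ALPI of 27.8.

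The number of ALPP reads was also set against that of ALPG reads within each library. This ratio was 25.0%, 19.8% and 13.7% in the 3 replicates at 0.15 µM and 10.4%, 11.1% and 8.08% at 1 µM, with means of 19.5% ± 5.67, 12.6% ± 1.24, 10.4% ± 1.76 and 9.86% ± 1.59 (SD, n = 3) in order of dose. All 3 replicates at 0.15 µM lay above all 3 at 1 µM, whereas those at 0.15 and 0.25 µM overlapped. Without the libraries that stood apart the means were 12.9% at 0.25 µM and 11.4% at 0.5 µM. The exact two-sided permutation test of the log2 ratio gave p = 0.1, the smallest that 3 against 3 libraries allow, and 0.15 after adjustment over 3 ratios. From the summed counts the ratio was 18.6% (95% counting interval 14.2 to 24.2) at 0.15 µM and 9.85% (9.00 to 10.8) at 1 µM. The part of reads exchanged between these near-identical genes in this ratio was not tested.

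ALPG reads relative to ALPL reads went from 5.53% ± 0.978 at 0.15 µM to 10.9% ± 0.882, 13.1% ± 1.45 and 13.6% ± 0.430 (SD, n = 3), with 10.4% at 0.25 µM and 12.3% at 0.5 µM without the libraries that stood apart. Every library at 0.25 µM and above lay over every library at 0.15 µM, and the exact permutation p between 0.15 and 1 µM was again 0.1, or 0.15 adjusted. ALPI reads relative to ALPG reads were 3.37% ± 1.90 at 0.15 µM and 2.32% ± 0.0205 at 1 µM, with overlapping replicates (exact permutation p = 0.7).

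**Figure D4:**
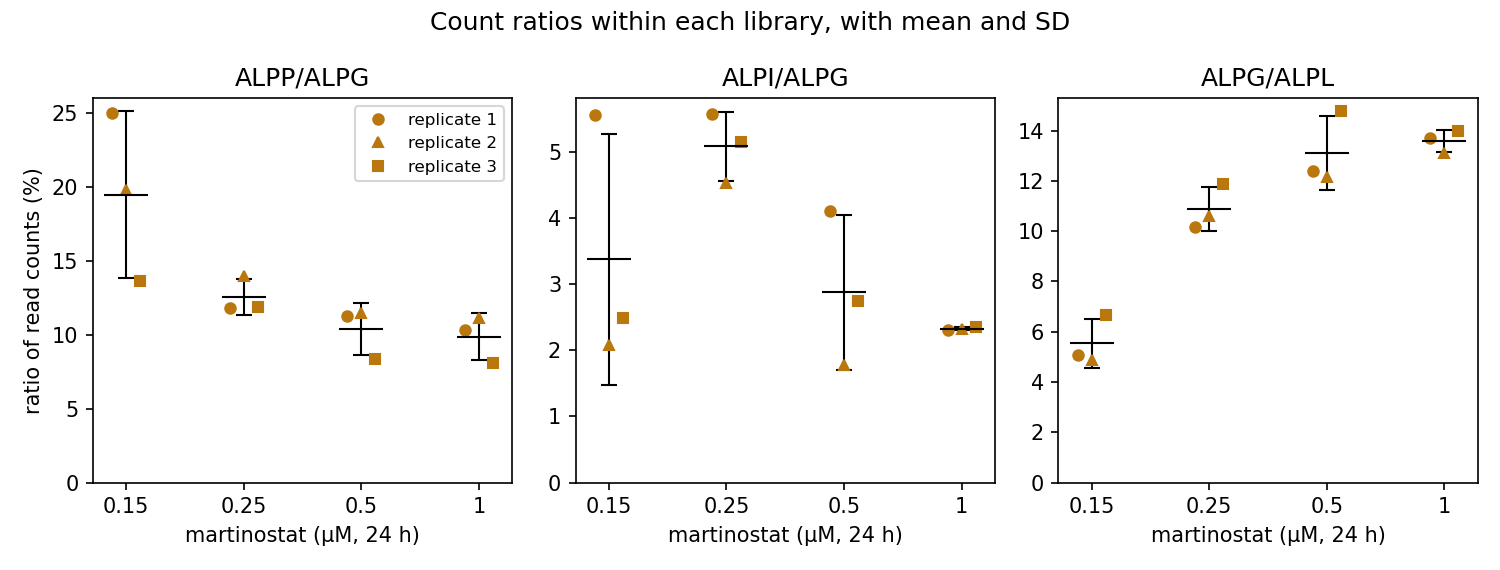
Ratios of read counts within each library, in percent, against martinostat dose in µM, with each replicate as a point and the mean and SD of 3 libraries as a bar. ALPP/ALPG went from 19.5% at 0.15 µM to 9.86% at 1 µM and ALPG/ALPL from 5.53% to 13.6%.

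The genes around the members were read for changes along the chromosome. Of 16 other genes that start within 150 kb of the cluster, 9 passed the filter, and at 1 µM 4 were called higher and 2 lower (edgeR, background 38.8% higher and 27.5% lower). ECEL1, an endothelin-converting enzyme-like peptidase next to ALPI, had 0 untreated counts and 2.14 ± 0.212 CPM at 1 µM (SD, n = 3), at least 54.2-fold above the floor. PRSS56, a serine protease, also had 0 untreated counts and 0.603 ± 0.518 CPM at 1 µM, and CHRND, the delta subunit of the muscle acetylcholine receptor, had 2 untreated counts and 0.385 ± 0.162 CPM. The pseudogene ECEL1P2 was called higher on 2 of 3 libraries with reads (0.185 ± 0.213 CPM). These values were far below those of ALPG, between ALPP and ALPI or lower. Neighbours with 0 or few untreated counts passed the filter only through treated libraries, which favours calls as higher. TIGD1 fell from 9.52 ± 1.86 to 4.42 ± 0.568 CPM and EIF4E2, a cap-binding translation factor, from 114 ± 6.46 to 70.5 ± 2.16 CPM. TIGD1 was not called on library totals (adjusted p 0.0507), nor EIF4E2 when TMM used only genes averaging 10 CPM or more (0.0513). EFHD1 (16.3 and 18.6 CPM), CHRNG (0.379 and 0.313 CPM) and NRBF2P6 (0.278 and 0.140 CPM) were not called, although EFHD1 was called higher on library totals (log2 fold change 0.55). The other 7 were filtered out, among them ECEL1P1 with 61 counts in all libraries and 3 with none.

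**Figure D5:**
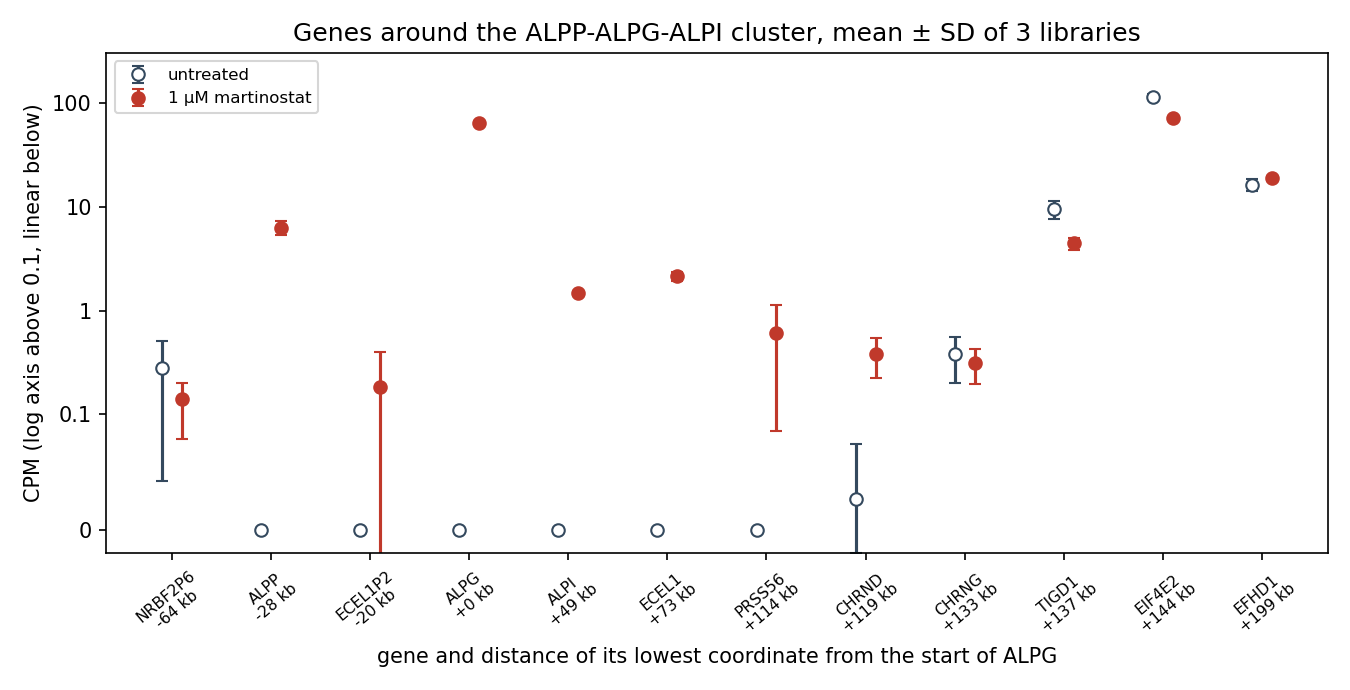
Mean CPM ± SD of 3 untreated and 3 libraries at 1 µM (log axis above 0.1, linear below) for the tested genes around the ALPP-ALPG-ALPI cluster, in chromosome order with the distance in kb of each from the start of ALPG. ALPG reached 63.6 CPM from 0, the nearby ECEL1 2.14 CPM from 0, and EIF4E2 fell from 114 to 70.5 CPM.

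Around ALPL, 10 genes start within 150 kb and 4 passed the filter. NBPF3 rose from 9.97 ± 0.741 to 18.1 ± 0.757 CPM (SD, n = 3; edgeR adjusted p 2.99e-05) and the pseudogene NBPF2P from 1.62 ± 0.218 to 2.89 ± 0.754 CPM (0.0228). RAP1GAP, a GTPase activator of Rap1 that lies next to ALPL, was at 71.3 ± 2.92 and 74.5 ± 5.19 CPM (0.656) on the TMM scale, and was called higher on library totals (log2 fold change 0.42, adjusted p 0.0103). HS6ST1P1 was not called (0.733).

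The counts of called genes in the lists that follow are at 1 µM, where 38.8% of all tested genes were called higher and 27.5% lower, with a median log2 fold change of 0.32. List genes with 0 or few untreated counts passed the filter only through treated libraries, which favours calls as higher. Of 16 genes of pyrophosphate and phosphate handling, 15 were tested. Of these, 7 were called higher and 5 lower, shares near those of all genes, with a median of 1.65. Their summed level was 1128 to 1204 CPM untreated and 806 to 824 CPM at 1 µM, and the gene with the largest change in CPM, singled out after its values were seen, was the inorganic pyrophosphatase PPA1, at 576 and 202 CPM. PHOSPHO1, the phosphatase that releases phosphate inside matrix vesicles of bone, had 6 counts over the untreated libraries (0.0817 ± 0.142 CPM) and 13.0, 27.2, 65.1 and 69.7 ± 17.9 CPM in order of dose (SD, n = 3). ENPP1, which produces the pyrophosphate that ALPL hydrolyses, had 10 counts over the untreated libraries. It went from 0.129 ± 0.160 to 12.0 ± 1.33 CPM at 1 µM (log2 fold change 6.47 ± 0.45 SE, as a description). ENPP2, autotaxin, had 0 untreated counts and 3.16 ± 0.606 CPM at 1 µM, at least 80.0-fold above the floor. All 3 libraries at 1 µM lay above the untreated libraries for PHOSPHO1, ENPP1 and ENPP2, as held for 42.8% of all tested genes.

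Of 6 genes of vitamin B6 handling, all tested, none was called higher and 2 lower, the latter near the share of all genes (median log2 fold change -0.16). PDXP, a pyridoxal phosphate phosphatase, fell from 19.1 ± 0.894 to 10.6 ± 0.720 CPM (SD, n = 3). PDXP was not called when TMM used only genes averaging 10 CPM or more (adjusted p 0.0588). Of 31 genes that make and attach the GPI anchor, 30 were tested, 10 were called higher and 12 lower, beside 38.8% and 27.5% of all genes (median -0.12). PGAP1, which removes an acyl chain from the anchor inositol, went from 0.835 ± 0.501 to 12.7 ± 0.605 CPM and PIGZ from 0.546 ± 0.358 to 2.83 ± 0.950 CPM. PIGW, the inositol acyltransferase of the same pathway, fell from 47.6 ± 4.52 to 4.58 ± 0.829 CPM.

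Genes of other proteins held by a GPI anchor were read in the same way. Of 44 such genes, 37 were tested, 26 were called higher and 6 lower at 1 µM, beside 38.8% and 27.5% of all genes (median log2 fold change 2.69). Their summed level was 1133 to 1195 CPM untreated, 2803 to 3054 at 0.15 µM and 2836 to 3088 at 0.25 µM. It was lower at 0.5 µM (1362 to 1454 CPM) and at 1 µM (1316 to 1499 CPM). From 0.25 to 0.5 µM, 14 were called higher and 12 lower, beside 14.4% and 16% of all tested genes. The NKG2D ligand ULBP3 had 0 untreated counts and 12.6 ± 1.75 CPM at 1 µM, and the adhesion molecule NCAM1 0 counts and 7.87 ± 0.719 CPM (SD, n = 3), at least 319-fold and at least 199-fold above the floor. RGMA, a repulsive guidance molecule, had 4 untreated counts and 67.8 ± 7.18 CPM. Of 8 genes of the zinc transporter families, 3 were called higher and 3 lower (median 0.18). SLC30A4 went from 0.239 ± 0.125 to 21.8 ± 1.14 CPM and SLC39A13 from 7.66 ± 0.330 to 45.1 ± 9.16 CPM. SLC30A10 had 8.32 ± 1.29 and 4.68 ± 1.38 CPM, a call that was lost on library totals (adjusted p 0.250). Of 6 acid phosphatases, the enzymes that work at acid pH, ACP6 was called higher and 3 were called lower, with a median of -0.84. ACP5, the tartrate-resistant enzyme, fell from 42.8 ± 3.21 to 16.1 ± 2.37 CPM and ACP3, the prostatic enzyme, from 2.01 ± 0.300 to 0.654 ± 0.466 CPM. ACP6 rose from 6.37 ± 0.160 to 16.4 ± 1.53 CPM.

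Marker lists of the tissues that normally express the family were read beside it. Their genes with 0 or few untreated counts, such as PAGE4 and ERVV-2 with 2 each, passed the filter only through treated libraries. This favours calls as higher, and the bounds given below cover only the genes at 0. Of 47 placental and trophoblast genes, 25 were tested, 20 were called higher and 1 lower, beside 38.8% and 27.5% of all genes. The median log2 fold change was 5.17, and 3.45 with the genes of 0 untreated counts at their bound. Their summed level was 45.6 to 51.5 CPM untreated and 202 to 222 CPM at 1 µM, of which the neurokinin B gene TAC3, singled out after its values were seen, held 3.23 CPM untreated and 116 CPM at 1 µM. Of the 47, 6 were at 1 CPM or more untreated and 15 at 1 µM. At 1 µM, 14 were under 0.1 CPM, among these the pregnancy glycoproteins PSG1 and PSG3 and the steroid enzyme HSD3B1. TFAP2C, a trophoblast and germ cell transcription factor, had 0 untreated counts and 2.38 ± 0.602 CPM at 1 µM, PAGE4 2 counts and 2.87 ± 0.311 CPM, and the envelope gene ERVV-2 2 counts and 1.68 ± 0.490 CPM (SD, n = 3).

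Of 21 genes of germ cells and their tumours, 14 were tested, 9 were called higher and 3 lower, beside 38.8% and 27.5% of all genes (median 2.09). The summed level was 2175 to 2299 CPM untreated and 1376 to 1599 CPM at 1 µM, and most of it was the tumour antigen PRAME, singled out for its level, at 1942 and 1428 CPM. LIN28B, the RNA-binding repressor of let-7, fell from 268 ± 27.3 to 14.4 ± 2.17 CPM. GDF3 fell from 2.13 ± 0.295 to 0.605 ± 0.262 CPM and PRDM1 rose from 1.43 ± 0.146 to 2.95 ± 0.656 CPM. The germ cell genes DDX4, DAZL, NANOG, DPPA3, DPPA5, SOX17 and PRDM14 were under 0.1 CPM at 1 µM. Of 26 enterocyte genes, 16 were tested, 12 were called higher and 1 lower, beside the same shares of all genes (median 2.88, or 2.42 with bounds), with summed levels of 33.1 to 37.8 and 47.7 to 56.7 CPM. HNF4A, a gut and liver transcription factor, had 0 untreated counts and 1.91 ± 0.755 CPM at 1 µM, the brush-border cadherin CDHR2 went from 0.459 ± 0.130 to 8.64 ± 0.800 CPM and the aminopeptidase ANPEP from 1.34 ± 0.262 to 6.84 ± 1.04 CPM. Most of the untreated sum was the villin gene VIL1, singled out for its level, which was the gene called lower at 1 µM. It stood at 23.8 ± 2.26 CPM untreated, 44.2 ± 6.49 CPM at 0.15 µM and 15.4 ± 2.08 CPM at 1 µM. The absorptive genes FABP1, FABP2, SI and APOA4 were under 0.1 CPM at 1 µM.

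Of 28 neutrophil genes, 23 were tested, 15 were called higher and 2 lower, beside 38.8% and 27.5% of all genes (median 2.23, or 2.09 with bounds). The summed levels were 115 to 120 and 263 to 288 CPM, with the largest change in the myeloid transcription factor CEBPB, singled out after its values were seen, at 42.5 and 177 CPM. From 0.25 to 0.5 µM, 1 of the 23 was called higher and 10 lower (median -1.20), beside 14.4% and 16% of all tested genes at that step. MMP9, a gelatinase of neutrophil granules, had 2 untreated counts and 4.79 ± 1.67 CPM at 1 µM, MME, the neutral endopeptidase CD10, 4 counts and 4.50 ± 0.226 CPM, and PRTN3, proteinase 3, rose by 3.36 ± 0.58 (SE) on the log2 scale. The granule and calcium-binding genes ELANE, MMP8 and S100A12 had means under 0.1 CPM in every group, and S100A9 was at 0.372 and 0.562 CPM at 0.15 and 0.25 µM and under 0.1 CPM in the other groups. Of 7 erythroid markers, 1 was called lower at 0.15 µM, 3 at 0.25 µM and 6 at 0.5 and at 1 µM, and none higher. Of all tested genes, 19.4%, 24.8%, 27.6% and 27.5% were called lower in order of dose, and 31.9%, 37.4%, 39.4% and 38.8% higher. Of the 6 at 1 µM, HBG2, a fetal globin, and EPOR, the erythropoietin receptor, were not called on library totals. The summed level went from 2194 to 2481 CPM untreated to 764 to 918 CPM at 1 µM. GATA1 went from 328 ± 5.90 to 312, 173, 15.5 and 18.8 ± 3.08 CPM in order of dose. The part of these cell-type transcripts in the rise of the alkaline phosphatase genes was not tested.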

How the data were processed

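Poly(A) RNA of the 15 K562 libraries was sequenced by the authors as paired 100-base reads from a directional kit. Per the labels and the study's methods, reads were trimmed with Trim Galore 0.6.10 and Trimmomatic, aligned to hg38 with HISAT2 2.2.1, and counted per gene of a GENCODE annotation with featureCounts 1.5.3. Strand and multi-mapping settings were not given in the sources used here. The deposited counts were raw and not normalized. The deposited FPKM were made by the authors per library, and dividing counts by them gave 1 length per gene, equal to the genomic span for 92.7% of 48212 genes.

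Groups and replicate numbers came from the labels. Symbols were matched for 99.8% of the 60649 identifiers. Positions and exons came from GENCODE v44 on hg38, and promoters from RefSeq on GRCh38.p14. Counts were fitted with edgeR 4.0.16 in R 4.3.3, with filterByExpr (23711 genes tested), TMM scaling, all 15 libraries in 1 robust quasi-likelihood fit with group as the only term (10 residual degrees of freedom, biological coefficient of variation 0.228) and Benjamini-Hochberg adjustment, with calls at 0.05. The script was tested on simulated data. DESeq2 1.42.0 and limma 3.58.1 were alternatives. Transcripts were searched in the genome with BLAST 2.17.0 for exact stretches of 100 bases. The members and all lists were chosen with earlier results of these data known. Named list genes were up to 3 per list with the largest absolute log2 fold change at 1 µM among called genes averaging 1 CPM or more, all tested neighbours, and the 5 genes nearest to ALPG in dose shape among those of fewer than 3 untreated counts and at least 5 CPM at 1 µM. Some list genes that this rule names are not reported here. Lists were described by counts and medians only. Intervals and floors cover counting error only.

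The labels do not say that equal replicate numbers belong together. Libraries with the same number deviated together from the means of their groups, with correlations of 0.266, 0.268 and 0.579, between 0.25 and 0.5 µM, where the numbers were taken to pair the libraries. In the other pairs of groups the correlations were 0.0918 or lower.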

Additional observations from a re-analysis of the deposited data

How the results depend on the processing

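The requirement of at least 10 counts in every library removed all 4 members and gave them no value. ALPP, ALPI and ALPL entered only through treated libraries, so their direction against untreated cells was fixed and gives no support. As a description, the log2 fold change of ALPI at 0.15 µM against untreated was 0.044 by limma on log2(FPKM + 1) and 0.38 on log2(FPKM + 0.1). At the steps up to 0.5 µM, the changes of all 4 members kept their direction under every other alternative. The calls given above for these steps were all kept except as follows. ALPI from 0.25 to 0.5 µM was not called with no filter on low counts (1.27), with only the libraries compared (1.27), or with both libraries that stood apart left out (1.29, chosen after the data were seen), and ranged from 0.89 to 1.501 with 1 library left out. ALPP from 0.15 to 0.25 µM ranged from 1.05 to 1.41. Between 0.5 and 1 µM, leaving out 1 library gave -0.086 to 0.025 for ALPG (0.0069 and 0.011 without the first replicate at 0.5 µM and the second at 1 µM), -0.29 to 0.025 for ALPP (0.021 without the third replicate at 1 µM), -0.54 to 0.065 for ALPI and -0.23 to 0.0039 for ALPL, none of them called. The causes were not tested.

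The number of genes called with at least 10 counts in every library was 7573, 8884, 9789 and 9724 in order of dose, against 12147, 14760, 15872 and 15707, since fewer genes were tested. With only the libraries compared it was 1880 from 0.15 to 0.25 µM (2911 in the full fit) and 4794 from 0.25 to 0.5 µM (7213), and 1740 to 4065 from 0.15 to 0.25 µM with 1 library left out, the lowest without the third replicate at 0.15 µM. Limma called 1 gene between 0.5 and 1 µM with either pseudocount. In deposited FPKM, ALPG was at 1.12, 4.44, 17.2 and 16.8 in order of dose, against 1.70, 6.05, 25.9 and 25.5 per exon kilobase. Both the length and the scaling between libraries differ between these values.

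With the replicate number as a block in the fit of all libraries, the ALPI step from 0.25 to 0.5 µM was 1.22 and 7161 genes were called. With the pairing used in a block fit of only the 0.25 and 0.5 µM libraries, added after the data were seen, its adjusted p was 0.018 and 10002 genes were called. The block changed no call of a member. Of 80 counts of called genes in the lists, 33 changed by over 1.5 times with at least 10 counts in every library, 24 and 18 with limma at a pseudocount of 1 and 0.1, 20 with TMM from genes of 10 CPM or more, 19 on library totals and at most 3 in each other setting that kept all libraries. Depth limits ALPI most, with 12 reads at 0.15 µM.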
